A study of Homo sapiens with 30 samples.

Results

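The effect of adding JQ-1 to enzalutamide was measured by RNA sequencing in MR49F prostate cancer cells kept in charcoal-stripped serum. The 3 libraries labelled MDV3100-JQ1 were compared with the 3 labelled MDV3100, an earlier code name of enzalutamide, and these 6 samples of the 30 in the series were chosen by their treatment labels and not by any measured value. MR49F is a line derived from LNCaP cells, by way of the castration-resistant line V16D, under long enzalutamide treatment of castrated mice. It is 1 selected line and carries the androgen receptor mutation F877L beside wild-type receptor. The cells of all 6 samples stood for 72 h in medium with steroid-depleted serum. They then received 10 µM enzalutamide, alone or together with 500 nM JQ-1, so that both groups share the mutant receptor, the stripped serum and enzalutamide. Per the labels, cells were harvested 24 h after treatment. The study's own description of its JQ-1 experiment points to a longer exposure, so the exposure time of these libraries is uncertain. Libraries from the same serum with vehicle (DMSO and ethanol), 500 nM JQ-1 alone, 1 nM dihydrotestosterone (DHT) and DHT plus JQ-1, 3 of each, served as reference points. Libraries of parental V16D cells in full serum, 3 with vehicle and 3 with 10 µM enzalutamide for 24 h, were used to define gene lists and to check the counts. The study found F877L absent or very rare in V16D. The study calls the replicates biological, each made from combined wells, but does not say whether they came from separately grown cultures, so p-values measure the spread between these libraries.

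The androgen receptor is a steroid-activated transcription factor that drives the luminal program of prostate cells, including KLK3, the gene of prostate-specific antigen. Enzalutamide normally blocks the receptor, but the F877L change in its ligand-binding domain is known to let the drug act as an agonist. JQ-1 displaces the bromodomain and extra-terminal (BET) proteins, among them BRD2 and BRD3, from acetylated chromatin, where they help release paused RNA polymerase II and work with transcription factors such as this receptor. The comparison therefore addresses what BET inhibition does to transcription in enzalutamide-treated cells that carry the mutant receptor beside the wild-type one. Binding of enzalutamide to either receptor was not measured.

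Levels are given as FPKM (mapped fragments scaled to transcript length and library size), summed over the transcripts of a gene. Fold changes are differences in log2(FPKM + 1), enzalutamide with JQ-1 minus enzalutamide, and understate the change of genes with low FPKM. A gene was called at a Benjamini-Hochberg adjusted p of at most 0.05 in limma. The 6 libraries had 982130 to 1702742 reads assigned to genes, 5.13 to 7.43% of the reads counted, and 11665 to 12035 genes at 1 FPKM or more. In the full-serum libraries of the series 73.0 to 77.8% of the reads counted were on genes. The FPKM were not made from these counts. Luminal genes were abundant, with a summed level of 10 markers of 2175 to 2218 FPKM under enzalutamide and 1273 to 1282 FPKM with JQ-1. The basal markers KRT5 and TP63 were at 0 in all 6 libraries. The 6 stromal and endothelial markers summed to at most 1.93 FPKM in any library. The 4 leukocyte markers summed to 3.14 to 3.40 FPKM under enzalutamide and 1.62 to 2.20 FPKM with JQ-1, with CD3E at 0 and CD68, which epithelial cells also express, the only one above the expression filter. The part of these low levels in the results was not tested.

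Of 12148 genes tested, 9193 (75.7%) were called, 3795 higher and 5398 lower with JQ-1. At 9473 of the genes tested (78.0%) the replicates of the 2 groups did not overlap, so such a separation was common. With so many small changes past the threshold, counts of genes changed at least 2-fold are given beside the calls: 262 genes (2.16% of those tested) were at least 2-fold higher and 838 (6.9%) at least 2-fold lower. Decreases outnumbered increases at larger sizes too, with 22 genes at least 4-fold higher against 86 lower and 5 at least 8-fold higher against 18 lower. The median change over all genes tested was -0.08 on the log2 scale. The read counts, which hold only a small share of the reads, gave 4902 calls among 10863 genes (45.1%) by edgeR's quasi-likelihood test. Of the 4499 genes called by both measures, 4444 had the same direction. The balance of small changes depended on scaling. With TMM scaling of the FPKM, which moved the median of all genes by 0.10, 4773 genes were called higher and 4426 lower, so 51.9% of calls were higher in place of 41.3%. The excess of decreases at 2-fold or more remained under that scaling, at 365 higher and 655 lower.

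**Figure D1:**
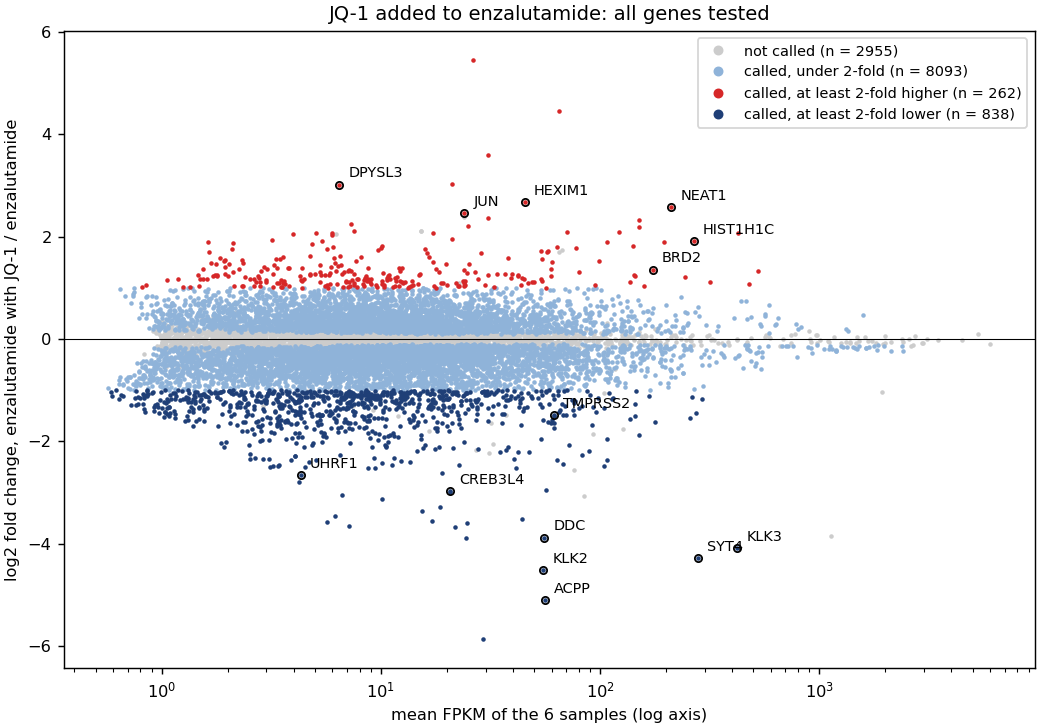
Log2 fold change of JQ-1 added to enzalutamide (vertical axis, difference in log2(FPKM + 1)) against the mean FPKM of the 6 samples (horizontal log axis), 1 point per gene tested and black rings around labelled genes. The 838 genes at least 2-fold lower reach further from the horizontal line than the 262 at least 2-fold higher, with ACPP, SYT4, KLK2 and KLK3 among the furthest.

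The kallikreins KLK3 and KLK2 and the transcription elongation inhibitor HEXIM1 carried some of the strongest responses of well-measured coding genes. Their promoters are shown for reference, and whether these windows take part in the responses was not tested. KLK3 and KLK2 are neighbours on chromosome 19 and arose by duplication. The windows are the 250 bases before the RefSeq start in GRCh38.p14, KLK3 at chr19:50854665-50854914, KLK2 at chr19:50873189-50873438 and HEXIM1 at chr17:45148225-45148474, all on the plus strand. Capitals mark GAACAGCAAGTGCT in KLK3 and KLK2, the longest run with the androgen response core GAACA that both windows share, and TATAAA in HEXIM1.
KLK3: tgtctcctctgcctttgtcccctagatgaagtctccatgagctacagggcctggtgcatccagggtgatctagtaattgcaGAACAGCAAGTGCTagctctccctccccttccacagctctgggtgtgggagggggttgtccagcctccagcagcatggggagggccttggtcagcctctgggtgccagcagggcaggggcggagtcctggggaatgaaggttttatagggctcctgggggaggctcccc
KLK2: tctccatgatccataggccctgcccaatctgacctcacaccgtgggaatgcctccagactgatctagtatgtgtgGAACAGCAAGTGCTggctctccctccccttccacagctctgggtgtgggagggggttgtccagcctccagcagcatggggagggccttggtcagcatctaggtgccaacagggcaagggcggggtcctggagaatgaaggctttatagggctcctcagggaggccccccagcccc
HEXIM1: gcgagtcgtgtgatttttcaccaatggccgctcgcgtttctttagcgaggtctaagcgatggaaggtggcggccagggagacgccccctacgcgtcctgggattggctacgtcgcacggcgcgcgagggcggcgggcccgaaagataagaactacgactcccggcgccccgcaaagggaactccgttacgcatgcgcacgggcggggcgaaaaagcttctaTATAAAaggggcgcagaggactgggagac
The KLK3 and KLK2 windows were identical at 207 of 259 aligned positions (79.9%). The run began 169 bases before the start in KLK3 and 175 bases before it in KLK2. Among 27305 RefSeq promoters of this length, searched on both strands, it was in these 2 only. The run was taken from these 2 windows, so its presence in both was fixed. A longer identical stretch follows it closely in both, so neither the sharing nor the rarity marks it as a receptor site. The shorter androgen response word AGAACA, also searched on both strands, was in 14.8% of all promoters and 10.4% of those of genes tested. It was in 95 of 626 promoters (15.2%) of genes at least 2-fold lower and in 14 of 189 (7.41%) of genes at least 2-fold higher. TATAAA was in 7.38% of promoters of genes tested, 11.5% of those at least 2-fold lower and 18.5% of those at least 2-fold higher. The E-box CACGTG, the word bound by MYC, stood at 11.5%, 15% and 9.52% in the same order. Such matches describe letters in a window and not bound sites.

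To see which receptor targets gave way to JQ-1, 4 well-known targets were taken first. KLK3 was at 794, 810 and 796 FPKM under enzalutamide and 44.9, 46.6 and 46.1 FPKM with JQ-1. All JQ-1 libraries lay far below all enzalutamide libraries, a 17.4-fold drop from 799.7 ± 8.90 to 45.9 ± 0.891 FPKM (SD, n = 3; log2 fold change -4.09, SE 0.03, adjusted p = 1.53e-11).

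KLK2, a kallikrein protease that can activate the KLK3 product, went from 106, 108 and 105 FPKM to 3.63, 3.78 and 3.65 FPKM. The level with JQ-1 was 3.47% of that under enzalutamide alone (log2 fold change -4.52, SE 0.04, adjusted p = 1.53e-11). TMPRSS2, the membrane serine protease whose androgen-driven promoter is often fused to ERG in prostate cancer, went from 95.2, 88.2 and 91.1 FPKM to 32.5, 32.2 and 31.2 FPKM. It fell 2.86-fold, much less than the kallikreins (log2 fold change -1.49, SE 0.04, adjusted p = 1.29e-08). FKBP5, a co-chaperone of steroid receptors, went from 49.0, 45.5 and 48.2 FPKM to 29.8, 29.9 and 29.3 FPKM, a smaller fall (log2 fold change -0.66, adjusted p = 9.36e-07). KLK3 thus stood at 5.74% of its level under enzalutamide, TMPRSS2 at 34.9% and FKBP5 at 62.4%.

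**Figure D2:**
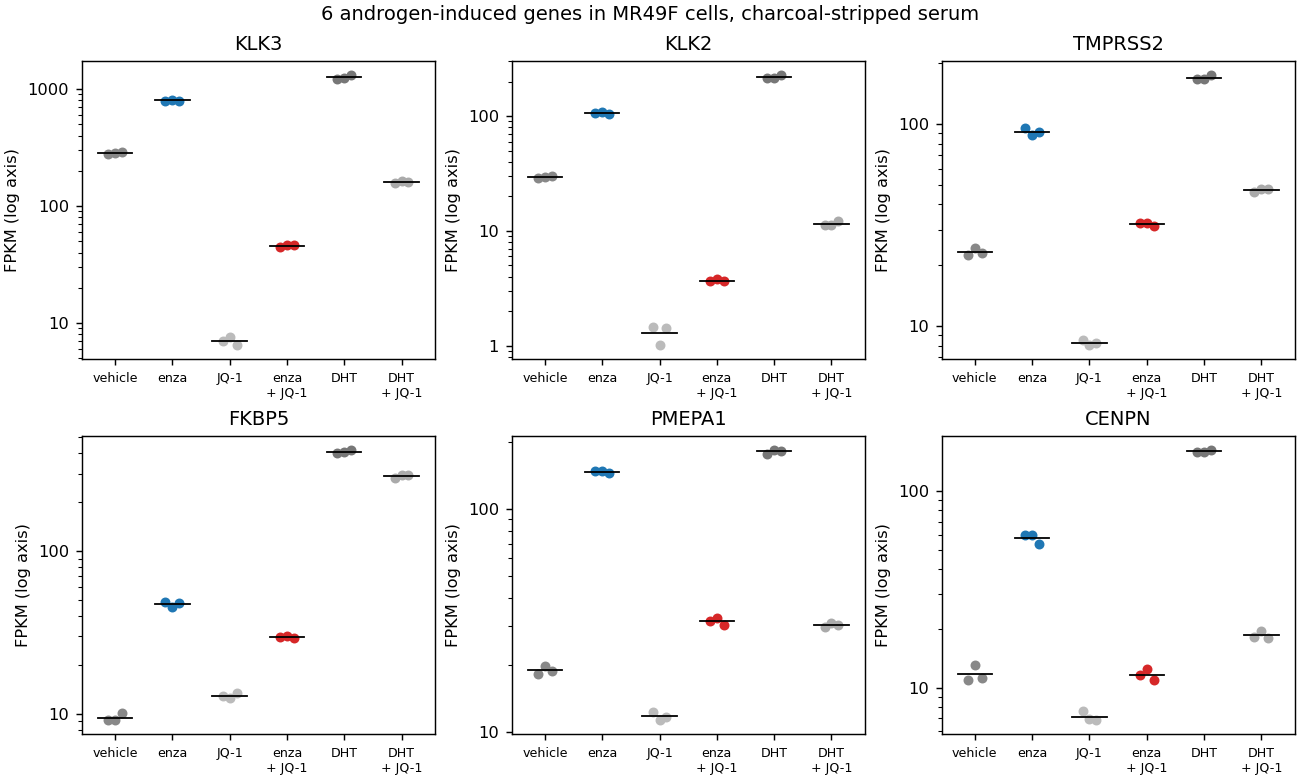
FPKM (log axes that differ between panels and do not start at 0) of 6 androgen-induced genes in each of the 3 libraries of the 6 stripped-serum conditions, points for libraries and bars for group means. Between enzalutamide (blue) and enzalutamide with JQ-1 (red), KLK3 dropped from 799.7 to 45.9 FPKM and KLK2 from 106 to 3.69 FPKM, while FKBP5 dropped only from 47.6 to 29.7 FPKM.

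The same targets were then set against vehicle, with the caution that this comparison shares its JQ-1 libraries with the one above. With enzalutamide alone, KLK3 was 1.498 higher than with vehicle on the log2 scale, KLK2 1.81, TMPRSS2 1.93 and FKBP5 2.21, all called. With JQ-1 added, KLK3 lay 2.60 below the vehicle level and KLK2 lay 2.70 below it (log2 fold changes -2.60 and -2.70, adjusted p = 2.81e-10 and 5.08e-10). TMPRSS2 remained above vehicle by 0.44 (adjusted p = 1.58e-05) and FKBP5 by 1.55 (adjusted p = 2.46e-08). The 4 genes therefore ended on both sides of the vehicle level. Across all genes, enzalutamide with JQ-1 differed from vehicle at 8948 of 12198 (73.4%), 217 of them at least 2-fold higher (1.78%) and 690 at least 2-fold lower (5.66%).

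The wider list of 30 androgen-induced genes had 26 members above the expression filter. With JQ-1, 15 fell and 7 rose, against 44.4% and 31.2% of all genes. At least 2-fold lower were 7 and at least 2-fold higher none, against 6.9% and 2.16% of all genes. The list's median was -0.58, beside -0.08 over all genes tested. ADAM7 and HPGD passed the filter only through their enzalutamide level and could only be lower. MAF passed only through its JQ-1 level and could only be higher. Under enzalutamide alone, 26 members were tested, with SGK1 in place of MAF. Of these, 23 had been higher than vehicle and none lower (background 19.3% higher), with the enzalutamide libraries common to both comparisons. CENPN, a centromere protein, went from 59.9, 60.0 and 53.9 FPKM to 11.6, 12.5 and 10.9 FPKM (log2 fold change -2.22, adjusted p = 1.16e-08). PMEPA1, a feedback inhibitor of TGF-beta signalling chosen after its values were seen, went from 148, 147 and 145 FPKM to 31.5, 32.4 and 30.4 FPKM (log2 fold change -2.19). ABCC4, ADAM7 and CAMKK2 also fell, by 1.06, 1.70 and 0.99 on the log2 scale.

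Among the members that rose were ACSL3, which activates long-chain fatty acids, from 61.1, 58.8 and 63.8 FPKM to 89.8, 86.7 and 89.3 FPKM (log2 fold change 0.53), the stress-responsive gene NDRG1 (0.50) and the transcription factor MAF (0.65, at most 1.61 FPKM). SLC45A3, C1orf116, HERC3 and NCAPD3 made up the rest of those called higher, at 0.15, 0.14, 0.17 and 0.41. ZBTB10, ELL2 and GNMT did not pass the test, at 0.02, 0.07 and 0.11. Androgen-induced genes thus spread from -4.52 to 0.65 on the log2 scale.

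Of 15 androgen-repressed genes, 7 passed the filter, with 4 lower and 1 higher, so the calls were no more frequent than the 75.7% over all genes. OPRK1, the kappa opioid receptor, fell by 1.63 on the log2 scale, from 7.03, 7.22 and 7.42 FPKM to 1.74, 1.75 and 1.504 FPKM. CXCR7, a chemokine receptor, fell by 1.39 and PEG3, an imprinted zinc finger gene, by 0.91. UGT2B11, a steroid glucuronidation enzyme, went from 0.534, 0.615 and 0.801 FPKM to 1.14, 1.285 and 1.20 FPKM, a rise of 0.42. It passed the filter only through its JQ-1 level and could only be higher. Although listed as androgen-repressed, it was raised by DHT in these cells, by 2.24 (limma adjusted p = 1.88e-07). NOV was the remaining one that fell, by 0.79, and FOLH1, the prostate-specific membrane antigen, did not pass (-0.03, adjusted p = 0.52).

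The list built around the receptor's cofactors spanned smaller changes. Of 15 tested, 4 rose and 6 fell, smaller shares than the 31.2% and 44.4% of all genes and all by less than 2-fold, and the list's median of -0.02 became 0.08 with TMM scaling. FOXA1, the pioneer factor that opens chromatin for the receptor, was at 121, 119 and 117 FPKM under enzalutamide. With JQ-1 it was at 158, 160 and 161 FPKM (log2 fold change 0.42, adjusted p = 4.86e-06). The coactivator NCOA3 rose from 4.73, 5.23 and 5.22 FPKM to 10.7, 10.97 and 10.4 FPKM (log2 fold change 0.95), and NCOA1 by 0.37. HOXB13, a prostate homeobox factor, fell by 0.48. EZH2, the histone methyltransferase of the Polycomb complex, fell by 0.53 in FPKM, but in the read counts its fall of 0.34 did not pass the test (edgeR adjusted p = 0.17).

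Genes defined by their response to DHT in the same cells gave a broader view. They had been chosen by a call and a 2-fold change between DHT and vehicle, samples that are not among the 6 compared. Of 399 DHT-induced genes (3.28% of those tested for DHT), 352 passed the filter, of which 239 were lower and 63 higher with JQ-1. Of these, 100 (28.4%) were at least 2-fold lower and 9 at least 2-fold higher, and the median was -0.47. Of 469 DHT-repressed genes (3.85%), 446 passed, with 236 lower, 145 higher, 80 (17.9%) at least 2-fold lower, 23 (5.16%) at least 2-fold higher and a median of -0.22. Genes that enzalutamide lowered at least 2-fold in parental V16D cells in full serum numbered 100 (0.8% of those tested there), of which 78 passed, with 45 lower, 21 higher, 24 (30.8%) at least 2-fold lower, 2 at least 2-fold higher and a median of -0.44. The 29 genes (0.232%) that enzalutamide raised in V16D had 20 members that passed, 16 of them lower, 2 higher, 11 at least 2-fold lower and none at least 2-fold higher, with a median of -1.24. Both the androgen-induced and the androgen-repressed sets thus held a larger share of genes at least 2-fold lower than the 6.9% over all genes tested. The DHT-repressed genes also held a larger share at least 2-fold higher than the 2.16% over all genes. Members that entered only through their enzalutamide level could only be lower.

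The BET proteins themselves responded unequally. BRD2 was at 97.7, 95.4 and 99.2 FPKM under enzalutamide and 243, 250 and 259 FPKM with JQ-1, a 2.57-fold rise (log2 fold change 1.35, SE 0.04, adjusted p = 1.55e-08). BRD3 went from 20.7, 20.6 and 19.6 FPKM to 16.3, 16.6 and 17.1 FPKM, a small fall (log2 fold change -0.27, adjusted p = 0.000334). Read counts gave BRD3 a change of -0.19 that did not pass (edgeR adjusted p = 0.088).

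HEXIM1, which holds the elongation kinase P-TEFb inactive and is widely used as a marker of BET inhibition, gave 1 of the strongest increases. It was at 11.9, 11.3 and 11.4 FPKM under enzalutamide and 78.3, 80.8 and 78.5 FPKM with JQ-1, a 6.86-fold rise (log2 fold change 2.68, SE 0.04, adjusted p = 4.12e-10). The read counts gave the same direction at a smaller size, 1.34 on the log2 scale (edgeR adjusted p = 4.79e-12). HEXIM2, its paralog, fell by 0.46 in FPKM, a call that the read counts did not make (-0.24, edgeR adjusted p = 0.40). POLR2A, the large subunit of RNA polymerase II, rose from 22.7, 23.9 and 22.0 FPKM to 56.0, 57.1 and 55.6 FPKM (log2 fold change 1.26). Over all 16 BET and P-TEFb genes, 7 rose and 2 fell (31.2% and 44.4% of all genes), with 10 higher and 2 lower under TMM scaling. The kinase CDK9 rose by 0.16 and its cyclin partners CCNT1 and CCNT2 were at 0.05 and -0.0025, neither called.

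MYC, a classical BET-dependent oncogene, was at 108, 98.1 and 94.4 FPKM under enzalutamide and 33.2, 35.1 and 36.3 FPKM with JQ-1. Every JQ-1 library was below every enzalutamide library, where 78.0% of all genes tested had no overlap. MYC fell 2.88-fold (log2 fold change -1.496, SE 0.06, adjusted p = 7.29e-08). It ended 0.91 below the vehicle level on the log2 scale (adjusted p = 2.61e-07). In its network of 11 tested genes, 3 rose and 6 fell, against 31.2% and 44.4% of all genes. The MYC antagonists MXD1 and MXD4 rose by 0.76 and 0.59 and MYCL1, a MYC paralog, by 0.26, while MNT, another antagonist, and the MAX-like protein MLX fell by 0.62 and 0.58.

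Nearly all of the 28 MYC target and ribosome biogenesis genes tested were lower, with 27 called lower, 10 of them at least 2-fold, and 1 called higher. The shares over all genes were 44.4%, 6.9% and 31.2% in the same order. The median of the 28 was -0.87, beside -0.08 over all genes. NOP16, a nucleolar protein, went from 37.5, 34.5 and 36.8 FPKM to 8.98, 10.5 and 11.1 FPKM (log2 fold change -1.74). SRM, spermidine synthase, went from 112, 105 and 93.4 FPKM to 36.3, 35.0 and 36.9 FPKM (log2 fold change -1.49), and PPAN, a ribosome assembly factor, fell by 1.17. The exception was ODC1, ornithine decarboxylase, which rose from 224, 211 and 222 FPKM to 340, 331 and 344 FPKM (log2 fold change 0.62). Under enzalutamide alone, in a comparison that shares the enzalutamide libraries, 27 of the 28 had been higher than vehicle and none lower. Of all genes 19.3% were higher and 19.3% lower there.

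DNA replication genes gave the lowest median of the gene lists, -1.35. Of 30 tested, 29 fell and none rose, 21 by at least 2-fold, and GINS4 alone did not pass (-0.07, adjusted p = 0.51). Over all genes 44.4% fell, 6.9% by at least 2-fold, and 31.2% rose. MCM5, a subunit of the replicative helicase, went from 17.99, 16.7 and 15.3 FPKM to 2.03, 1.92 and 2.21 FPKM (log2 fold change -2.53, adjusted p = 1.13e-08). UHRF1, which guides maintenance DNA methylation, went from 8.32, 8.31 and 7.91 FPKM to 0.362, 0.400 and 0.616 FPKM (log2 fold change -2.66). RRM2, the inducible subunit of ribonucleotide reductase, went from 20.9, 18.8 and 19.6 FPKM to 3.30, 3.005 and 3.06 FPKM (log2 fold change -2.33). No JQ-1 library of these 3 genes reached the lowest enzalutamide library, where 78.0% of all genes tested had no overlap. In bulk RNA, fewer cells in S phase and less RNA per cell cannot be told apart. PCNA, the sliding clamp, and LIG1, DNA ligase 1, fell less, by 0.45 and 0.23.

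Mitosis genes behaved less uniformly, with 5 of 22 higher, 11 lower, 1 at least 2-fold lower and a median of -0.18. These counts are near the shares over all genes, of which 31.2% were higher, 44.4% lower and 6.9% at least 2-fold lower. UBE2C, the ubiquitin-conjugating enzyme of the anaphase-promoting complex, went from 29.8, 25.1 and 26.6 FPKM to 9.83, 11.9 and 12.1 FPKM (log2 fold change -1.20). FOXM1, a transcription factor of the G2 and M phases, fell by 0.93 and the checkpoint kinase BUB1B by 0.83. CDC20, the mitotic activator of the same complex, rose from 25.7, 23.8 and 23.2 FPKM to 33.6, 37.1 and 36.9 FPKM (log2 fold change 0.55), with BUB1 at 0.48 and CENPE at 0.38. Under enzalutamide alone, in a comparison that shares the enzalutamide libraries, all 22 mitosis genes and all 30 replication genes had been higher than vehicle. The share over all genes was 19.3%.

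The G1 regulators fell on both sides, with 11 lower and 8 higher of 19 and a median of -0.60, against 44.4% and 31.2% of all genes. CDC25A, the phosphatase that activates CDK2, went from 8.27, 6.38 and 6.93 FPKM to 1.01, 0.956 and 0.969 FPKM (log2 fold change -2.04). E2F1, which activates replication genes, fell by 1.34 and CDK2 by 1.07. CCND1, cyclin D1, went from 78.9, 77.8 and 78.0 FPKM to 39.9, 41.8 and 40.1 FPKM (log2 fold change -0.93, adjusted p = 7.49e-08). The CDK inhibitor genes CDKN2D, CDKN2B and CDKN2C rose, CDKN2D from 9.23, 8.49 and 7.996 FPKM to 24.2, 27.1 and 27.0 FPKM (log2 fold changes 1.501, 1.37 and 0.71). CDKN1A, which encodes p21, rose slightly, from 43.9, 42.2 and 41.5 FPKM to 51.2, 55.6 and 50.7 FPKM (log2 fold change 0.30, adjusted p = 0.000348).

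Among lists with at least 7 genes tested, histone genes had the highest median, 1.63. Of 16 tested, 13 were higher, 10 of them at least 2-fold, and 2 lower. The shares over all genes were 31.2%, 2.16% and 44.4% in the same order. These libraries were made from polyadenylated RNA, and most mRNAs of replication-dependent histones lack a poly(A) tail, so the values cover the polyadenylated share of such transcripts. Histone genes also have near-identical copies, so the division of reads among them is uncertain. HIST1H1C, a linker histone, went from 111, 108 and 115.8 FPKM to 412, 431 and 422 FPKM (log2 fold change 1.91). HIST1H2BC went from 25.3, 25.3 and 27.7 FPKM to 106, 119 and 121 FPKM (log2 fold change 2.099), while HIST1H2BJ rose by 2.1 and HIST1H1E by 2.06. H2AFZ, a replication-independent variant, fell from 248, 267 and 292 FPKM to 143, 146 and 131 FPKM (log2 fold change -0.94). HIST1H2BK fell by 0.32 in FPKM, with a value of 0.04 in the read counts (edgeR adjusted p = 0.82).

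**Figure D3:**
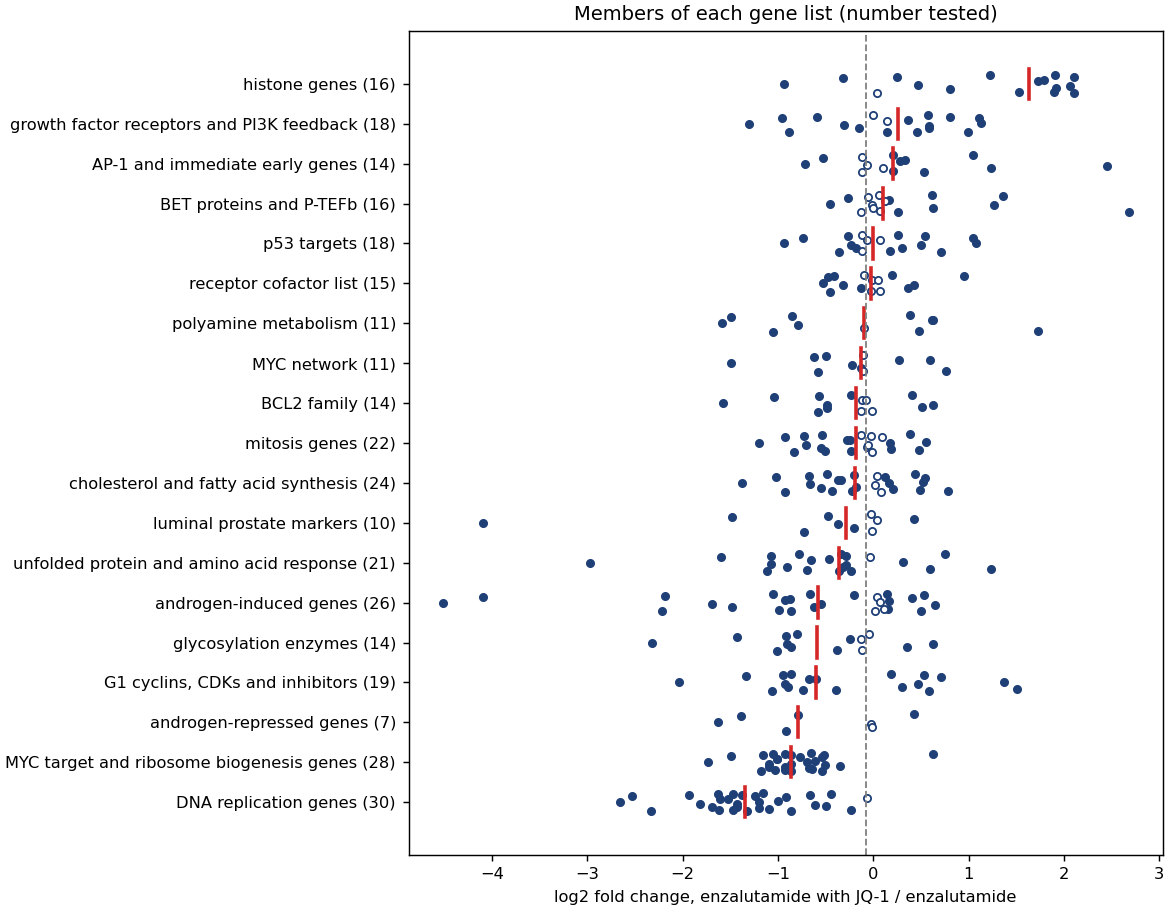
Log2 fold change of each tested member of 19 gene lists (number tested in brackets), filled points for called genes, open points for genes not called, red bars for list medians and the dashed line for the median of all genes. Replication genes lie almost wholly to the left with a median of -1.35, MYC target genes follow at -0.87, and 10 of 16 histone genes lie beyond 1.

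**Figure D4:**
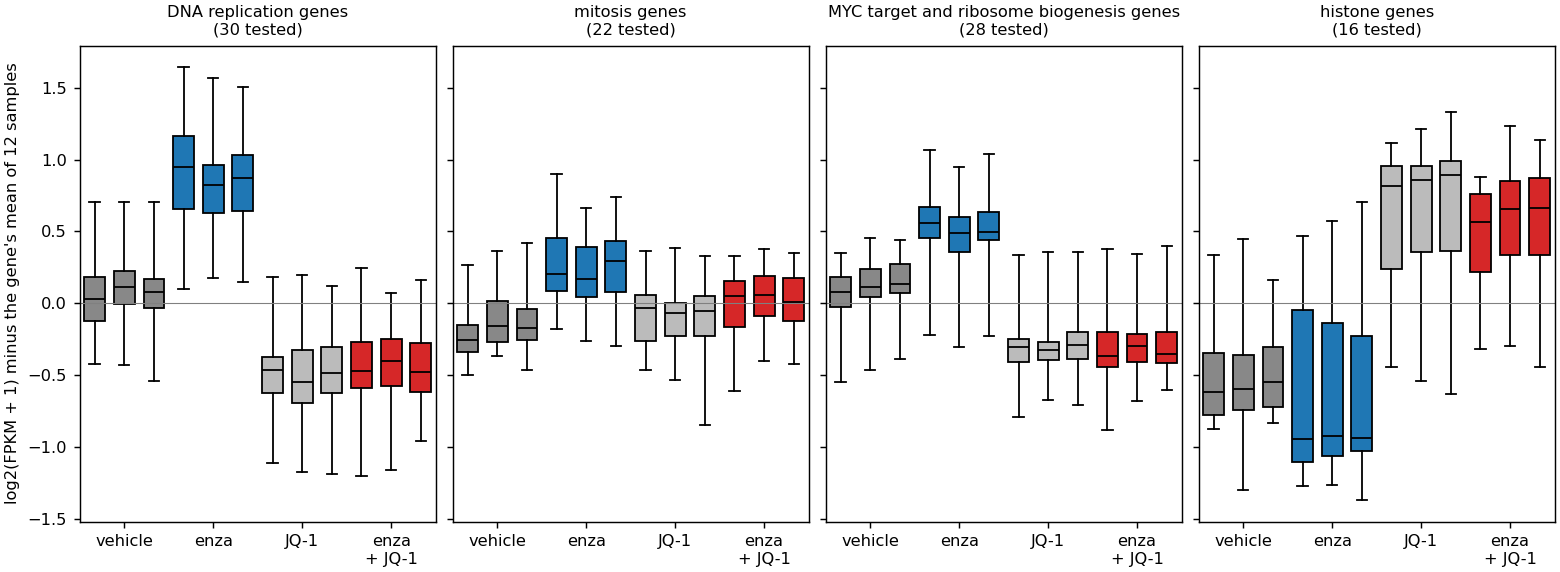
Level of 4 gene lists in each library of 4 conditions, as log2(FPKM + 1) of each member minus its own mean over the 12 samples. Boxes span the quartiles with the median as a line and whiskers reach the lowest and highest member. Median replication levels run from 0.826 to 0.951 under enzalutamide and from -0.482 to -0.404 with JQ-1 added, close to the -0.549 to -0.464 of JQ-1 alone, while histone medians run from -0.943 to -0.924 under enzalutamide and from 0.567 to 0.661 with JQ-1 added.

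The largest decreases among all genes included prostate and neural genes outside these lists. ACPP, prostatic acid phosphatase, went from 110, 107 and 112 FPKM to 1.92, 2.41 and 2.31 FPKM, a 49.5-fold fall (log2 fold change -5.11, SE 0.06, adjusted p = 1.70e-10). SYT4, a synaptotagmin of vesicle release, went from 521, 534 and 549 FPKM to 26.5, 26.9 and 26.3 FPKM, and DDC, aromatic amino acid decarboxylase, from 105, 100 and 110 FPKM to 5.93, 6.18 and 6.45 FPKM (log2 fold changes -4.28 and -3.88). Unlike KLK3 and KLK2, these 3 genes had been lower under enzalutamide than with vehicle, by 0.92, 0.35 and 0.55 on the log2 scale. The non-coding LINC00161 fell by 3.67 and FAM198B, a Golgi kinase-like gene, by 3.59. The small RNA genes SNORA76 and SNORA59A were listed at 0 in all 3 JQ-1 libraries and SNORA52 in 2 of 3, against 8.51 to 71.4 FPKM under enzalutamide. Small RNAs of this size are poorly captured by poly(A) selection.

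The largest increases were headed by MIR941-3, listed at 0 in the enzalutamide libraries and at 101, 20.8 and 36.6 FPKM with JQ-1, a scattered set of values. LOC100507412, an uncharacterised non-coding RNA, went from 4.51, 4.75 and 4.89 FPKM to 117, 127 and 130 FPKM, a 26.4-fold rise (log2 fold change 4.46, adjusted p = 1.54e-10). The read counts gave LOC100507412 a smaller rise, 2.27 on the log2 scale (edgeR adjusted p = 3.46e-15). DPYSL3, a cytoskeletal protein of neurite growth, went from 0.737, 0.520 and 0.673 FPKM to 11.97, 12.8 and 12.03 FPKM (log2 fold change 3.01). NEAT1, the scaffold RNA of paraspeckles, rose from 56.1, 59.2 and 63.9 FPKM to 359, 371 and 356 FPKM (log2 fold change 2.58). TXNIP, a thioredoxin inhibitor that responds to glucose, rose from 50.2, 47.3 and 50.2 FPKM to 248, 254 and 247 FPKM (log2 fold change 2.32). PEG10, a retrotransposon-derived imprinted gene, rose by 2.37 and the histone genes HIST2H3C and HIST1H2AG by 3.03 and 2.24.

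Stress and immediate early genes were mixed. JUN, a subunit of AP-1, rose from 6.88, 6.69 and 6.601 FPKM to 39.6, 42.4 and 41.8 FPKM (log2 fold change 2.45, adjusted p = 1.52e-09), with ATF3 at 1.24 and JUND at 1.05. Of 14 genes of that list 8 rose, against 31.2% of all genes, and 2 fell, the phosphatase genes DUSP4 and DUSP5, by 0.72 and 0.53. In the unfolded protein and amino acid response 16 of 21 fell, against 44.4% of all genes, and 4 rose, with a median of -0.36. CREB3L4, a membrane-bound factor of the secretory pathway, went from 38.1, 38.6 and 35.4 FPKM to 4.18, 3.71 and 3.73 FPKM (log2 fold change -2.98, adjusted p = 1.99e-09). TRIB3 fell by 1.60 and XBP1, a master factor of the response, by 1.11. ASNS, asparagine synthetase, rose by 0.59 and DDIT3, which encodes CHOP, by 0.75, though the read counts gave DDIT3 0.06 (edgeR adjusted p = 0.70).

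Metabolic lists had members in both directions, to be read against 44.4% lower and 31.2% higher over all genes. Of 14 glycosylation enzymes, 9 fell and 2 rose with a median of -0.59. ST6GALNAC1, a sialyltransferase, went from 5.56, 4.97 and 4.85 FPKM to 0.208, 0.204 and 0.259 FPKM (log2 fold change -2.32), GALNT7 fell by 1.43 and UGDH by 1.01, while EDEM3 rose by 0.62 and PGM3 by 0.35. Of 24 cholesterol and fatty acid synthesis genes, 13 fell and 8 rose, with 11 and 10 under TMM scaling. FADS1 and ACACA fell by 1.38 and 1.02, while SREBF1, which encodes the lipid-synthesis factor SREBP1, rose by 0.78, INSIG1 by 0.54 and ELOVL7 by 0.52.

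To ask whether the response to JQ-1 depended on enzalutamide, it was compared with the response to JQ-1 alone, which rests on 6 other libraries. Across the 11998 genes tested in both, the log2 fold changes had a Pearson r of 0.90, given as a description because genes are not independent. Of genes at least 2-fold changed, 697 were so in both and in the same direction, 65.0% of the 1072 with enzalutamide and 79.1% of the 881 without. At least 2-fold changes took 7.51% of all genes tested for JQ-1 alone. A test of the difference between the responses, an interaction term over the 12 libraries, called 2389 of 12454 genes (19.2%), 940 higher and 1449 lower with enzalutamide, and 46 of them (0.369%) differed by at least 2-fold. The read counts gave only 104 such calls (edgeR, adjusted), so these differences rest on the FPKM. HEXIM1 was not called (difference 0.07, SE 0.07, adjusted p = 0.48).

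The kallikreins went in opposite directions in that test. KLK3 fell by 4.09 with enzalutamide and by 5.15 without it, a difference of 1.05 (SE 0.06, adjusted p = 7.52e-07), and its final levels were 45.9 and 7.01 FPKM. KLK2 fell by 4.52 with enzalutamide and by 3.74 without it, a difference of -0.78 (SE 0.09, adjusted p = 0.000132) that was not called with a pseudocount of 0.1 (-0.39, adjusted p = 0.074). TMPRSS2 fell by 1.49 and 1.39, a difference that did not pass the test (-0.10, SE 0.06, adjusted p = 0.26). FKBP5 fell by 0.66 with enzalutamide and rose by 0.41 without it, a difference of -1.07 (adjusted p = 7.36e-07).

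KLK4, a further kallikrein, had the largest positive difference, 1.499 (adjusted p = 8.04e-07). It went from 79.9, 76.6 and 68.3 FPKM to 38.6, 40.3 and 41.9 FPKM with enzalutamide, a fall of 0.88, and fell by 2.38 without it. STEAP2, a metalloreductase, was at 193, 209 and 212 FPKM under enzalutamide and 192, 202 and 182 FPKM with JQ-1, not called, but fell by 1.37 without enzalutamide (difference 1.28, adjusted p = 1.19e-07). MYBPC1, a myosin-binding protein, was at 0.792, 0.908 and 1.01 FPKM with vehicle, 12.7, 11.5 and 12.2 FPKM with enzalutamide and 0.167, 0.172 and 0.262 FPKM with both drugs (difference -2.62, adjusted p = 1.75e-08). ST6GALNAC1 had the same order of levels, with 0.328, 0.307 and 0.323 FPKM in the vehicle libraries (difference -2.01, adjusted p = 4.80e-08). Both genes were under the filter for JQ-1 alone. Their means went from 0.904 to 0.0712 FPKM and from 0.319 to 0.0631 FPKM there, falls that log2(FPKM + 1) understates. On that scale, the falls of 3.45 and 2.32 with enzalutamide were possible only after the rise of these genes under enzalutamide, by 2.79 and 2.21. These 2 differences therefore do not show a changed response to JQ-1.

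**Figure D5:**
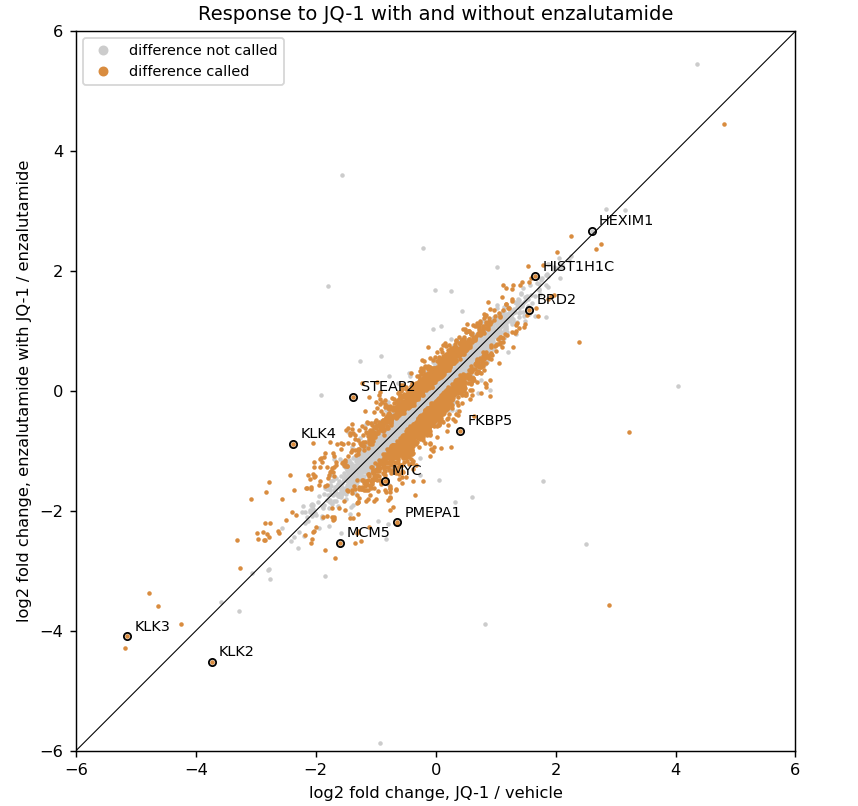
Log2 fold change of JQ-1 with enzalutamide (vertical) against JQ-1 alone (horizontal), 1 point per gene, orange where the interaction term was called, with the diagonal marking equal responses and 1 gene beyond the axes. HEXIM1 lies on the diagonal, KLK3, KLK4 and STEAP2 above it, and KLK2, FKBP5, PMEPA1 and MCM5 below it.

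The difference was spread over the growth lists. Of 30 replication genes, the log2 fold change with JQ-1 was lower in the presence of enzalutamide at 29 and higher at none. The median difference was -0.79, and over all genes 11.6% were lower and 7.55% higher. The list's median change was -1.35 with enzalutamide and -0.61 without it, so the fall was larger with enzalutamide. Of 28 MYC target genes, the log2 fold change was lower with enzalutamide at 25 and higher at none (median difference -0.42). MYC itself fell by 1.496 with enzalutamide and 0.85 without it (difference -0.64, adjusted p = 0.000188). Of 22 mitosis genes, it was lower with enzalutamide at 12 and higher at none (median difference -0.26). Under enzalutamide alone, the replication, MYC target and mitosis lists had been above vehicle, with medians of 0.80, 0.42 and 0.35. Relative to each gene's mean, the middle library's list median was -0.47, -0.36 and 0.05 with both drugs. With JQ-1 alone it was -0.485, -0.31 and -0.05. The part of the higher starting level in these differences was not tested. Measured from vehicle instead, in a comparison that shares libraries with the test above, 24 of 30 replication genes ended lower with both drugs and 3 higher, against 43.8% and 29.5% of all genes, and 25 of 28 MYC target genes ended lower and 1 higher. Of the 22 mitosis genes, 14 ended above vehicle and 5 below.

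Set against DHT in place of enzalutamide, the response to JQ-1 differed at 2766 of 12357 genes (22.4%), 1083 (8.76%) higher and 1683 (13.6%) lower with enzalutamide, against 282 in the read counts (edgeR, adjusted). The log2 fold changes with enzalutamide and with DHT had an r of 0.90 across 11714 genes. KLK3 fell by 4.09 with enzalutamide and by 2.96 with DHT (difference -1.14, adjusted p = 5.28e-08), so that it ended at 45.9 FPKM against 161.0 FPKM. MYC fell less with enzalutamide than with DHT, by 1.496 against 1.99 (difference 0.49, adjusted p = 0.0021). SERPINI1, a serine protease inhibitor, went opposite ways, falling by 1.03 with enzalutamide and rising by 1.12 with DHT (difference -2.14, adjusted p = 1.47e-08).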

How the data were processed

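RNA was measured in 30 samples as strand-specific, poly(A)-selected single-end libraries, and 18 of them, 6 conditions of 3, were from MR49F cells in charcoal-stripped serum. The authors aligned reads with TopHat 2.0.9 to GRCh37/hg19 and deposited 2 files per library. The deposited FPKM, 43497 transcripts from Cufflinks 2.1.1, were normalized by the authors for transcript length and mapped fragments. They were summed here to 23616 gene symbols. The deposited counts, unnormalized reads for 23710 symbols, were made by the authors with HTSeq, and the strand setting is not given in the sources used here. Lines naming no gene were left out of library sizes, and 14813917 to 22501574 reads per library of this comparison fell on no feature. Of 54 genes with a mean of at least 100 counts but under 1 FPKM in the enzalutamide libraries with and without JQ-1, 39 (72.2%) lay opposite a gene of at least 10 FPKM, against 9 of 99 (9.09%) in V16D cells in full serum and 7.11% of all 21963 matched genes. The FPKM therefore lead the text. The cause of the low share of reads on genes, such as the strand setting, was not tested. Precision of the counts was limited by the few reads on genes, and their biological coefficient of variation was 7.02%. Replicates of a group differed beyond sampling noise (chi-square per degree of freedom 1.26 to 2.66), so each counts as 1 sample.

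Samples were grouped by their labels. Genes at 1 FPKM or more in at least 3 of the fitted samples were tested on log2(FPKM + 1) with limma 3.58.1 (R 4.3.3, mean-variance trend), over the compared groups only, with Benjamini-Hochberg adjustment and a threshold of 0.05, and 11468 symbols fell below this filter in the main comparison. In a comparison of 2 groups, a gene that passed this filter through 1 group alone could only be higher there. Differences between responses were interaction terms. Counts were tested with edgeR 4.0.16 (quasi-likelihood). Both were tested on simulated data for this comparison. There limma on 12576 genes recovered 100 of 100 genes changed 2-fold and 100 of 100 changed 4-fold. On 10802 genes edgeR recovered 95 of 100 and 100 of 100, and limma called 34 unchanged genes and edgeR 10. The simulation changed only these genes, all well counted and evenly split between increases and decreases, with FPKM from an assumed greater depth. Its recovery therefore does not extend to genes of low level or to changes in most genes. Alternatives were a pseudocount of 0.1, no filter, TMM scaling, a replicate block, all 18 stripped-serum samples in 1 fit, each library left out in turn, edgeR on counts, and for the counts DESeq2 1.42.0, its size factors, and a two-group test on variance-stabilized values. A 2-fold cutoff and the removal of microRNA and snoRNA genes were added after seeing the data. Promoters were from RefSeq (GRCh38.p14), with 9420 of 12148 tested genes matched by symbol, and were aligned with Biopython 1.88.

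The comparison, gene lists and tests were chosen with earlier results of these data known. The genes named are anchors (KLK3, KLK2, TMPRSS2, FKBP5, MYC, HEXIM1, BRD2, BRD3, CCND1, CDKN1A), the 10 largest called, non-overlapping increases and decreases at 5 FPKM or more in the higher group, up to 3 called increases and 3 decreases per list at 1 FPKM or more, BET proteins, and the 5 largest called differences in each direction between responses at 5 FPKM or more in the highest group. Other genes named beside a list were chosen after their values were seen. Some genes that this rule selects are not reported here, and lists are counted with all members.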

Additional observations from a re-analysis of the deposited data

Results flagged for a closer look

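Each value here is a difference between 2 responses to JQ-1 in log2(FPKM + 1), tested as an interaction term in limma with Benjamini-Hochberg adjustment, and each passed that test. The response with enzalutamide minus the response to JQ-1 alone passed at 2389 genes.

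Above 0, meaning a weaker fall or a stronger rise with enzalutamide, were KLK4 at 1.499, C11orf92 at 1.41, RASL11A, a RAS-like GTPase, at 1.36 and STEAP2 at 1.28. C11orf92 went from 27.6, 28.2 and 30.7 FPKM under enzalutamide to 1.88, 1.97 and 1.82 FPKM with JQ-1. RASL11A was low and overlapped there, at 1.67, 1.80 and 1.40 FPKM against 2.15, 1.82 and 1.64 FPKM, while it fell by 1.24 without enzalutamide. Of the anchor genes, KLK3 was at 1.05 and CDKN1A at 0.20.

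Below 0 were MYBPC1 at -2.62, ST6GALNAC1 at -2.01, FKBP5 at -1.07, KLK2 at -0.78, MYC at -0.64 and BRD2 at -0.21. MYBPC1 and ST6GALNAC1 were under the filter for JQ-1 alone, where little fall in log2(FPKM + 1) was possible. MIR1307 stood at -6.46, SNORA59A at -5.71 and H3F3A, a histone gene with expressed pseudogene copies, at -3.90, and their libraries were scattered. MIR1307 had 15.2 FPKM in 1 library with both drugs and under 0.001 FPKM in the others. H3F3A had 24.9, 16.6 and 12.6 FPKM under enzalutamide and 16.2, 4.04 and 16.5 FPKM with JQ-1, with 9.47 FPKM in 1 vehicle library and under 0.01 FPKM in the others. The BRD2, CDKN1A and H3F3A calls were each lost when certain single libraries were left out, and BRD2 was at 0.14 in the read counts.

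The response with enzalutamide minus the response with DHT passed at 2766 genes. Above 0 were ORM1 at 3.05 and ORM2 at 2.39, both acute-phase glycoproteins with near-identical sequences, STEAP4 at 2.33, NPPC, C-type natriuretic peptide, at 2.1 and CSGALNACT1 at 2.06. ORM1, ORM2, STEAP4 and CSGALNACT1 were under 1 FPKM in all enzalutamide libraries, so these values come from the libraries with DHT. NPPC went from 10.7, 7.54 and 9.27 FPKM under enzalutamide to 0.623, 1.27 and 1.05 FPKM with JQ-1. MYC was at 0.49 and TMPRSS2 at 0.33.

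Below 0 were SNORA59A at -5.78, SNORA76 at -5.47, SERPINI1 at -2.14, ADRA2A, an adrenergic receptor, at -1.93 and GPC5-AS1 at -1.88. ADRA2A went from 6.12, 6.07 and 5.80 FPKM under enzalutamide to 0.199, 0.273 and 0.228 FPKM with JQ-1. KLK3 was at -1.14, CCND1 at -0.41, KLK2 at -0.39 and FKBP5 at -0.17. The 2 sets of differences share the enzalutamide libraries and are not independent.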

How the results depend on the processing

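The call counts depended mainly on the measure and on a size cutoff. For JQ-1 added to enzalutamide, 9193 calls in FPKM became 4902 with edgeR on counts and 1100 with a 2-fold cutoff, and 8363 to 8748 when 1 library was left out. In the counts, 4902 calls became 3223 with DESeq2's Wald test and 2706 with the two-group test on variance-stabilized values, and 4160 to 5063 without 1 library. For the difference from JQ-1 alone, 2389 calls became 104 with edgeR on counts and 46 with a 2-fold cutoff (1756 to 2397 without 1 library). For the difference from JQ-1 with DHT, 2766 became 282 and 107 (2184 to 2541 without 1 library). For both drugs against vehicle, 8948 became 4533 and 907 (8038 to 8483 without 1 library). The median of DHT-induced genes, -0.47, became -0.64 with a pseudocount of 0.1 and -0.40 with TMM scaling (-0.51 to -0.39 without 1 library). The median of V16D enzalutamide-repressed genes, -0.44, became -0.66 with a pseudocount of 0.1, -0.41 with no filter, -0.48 with the replicate block and -0.48 with edgeR on counts (-0.53 to -0.32 without 1 library). The sign changed with edgeR on counts for ARG2 (0.047), HIST1H2BK (0.041) and NFKBIA (0.21) under JQ-1 added to enzalutamide, and for BRD2 in the difference from JQ-1 alone (0.14), none of them called there. The cause was not tested. The BRD2 difference from JQ-1 alone was also lost when any 1 library was left out other than enzalutamide with JQ-1 replicate 3, JQ-1 replicate 1 or vehicle replicate 3. The H3F3A and CDKN1A differences from JQ-1 alone and the FKBP5 difference from JQ-1 with DHT were lost in several such fits.

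The replicate numbers did not pair the samples: correlations of deviations for libraries of the same number were -0.16, 0.21 and 0.08. With the replicate block, calls numbered 8883 in FPKM and 4968 in counts for JQ-1 added to enzalutamide, 2221 and 2567 for the differences from JQ-1 alone and with DHT, and 9030 against vehicle. Reads on genes of 982130 to 1702742 per library limit the counts, above all for genes low in FPKM.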

Other observations

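Members of further gene lists are given for JQ-1 added to enzalutamide, again in log2(FPKM + 1) with limma's adjusted calls. Over all genes 75.7% were called, 31.2% higher and 44.4% lower, and the number of calls in the BCL2 family, the p53 targets and the luminal markers lay near that overall share. Polyamine genes had 5 of 11 higher and 5 lower and a median of -0.10 that became 0.009 with TMM scaling. AMD1, which makes decarboxylated S-adenosylmethionine for polyamine synthesis, went from 88.8, 90.3 and 94.5 FPKM to 30.6, 30.4 and 27.8 FPKM (log2 fold change -1.59). SAT1, the acetyltransferase that starts polyamine breakdown, went from 24.9, 23.0 and 25.6 FPKM to 86.1, 82.5 and 81.0 FPKM (1.72). SMOX, spermine oxidase, and ODC1, the first enzyme of polyamine synthesis, rose by 0.61 and 0.62, while ARG2, arginase 2, fell by 1.05 in FPKM only.

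Growth factor receptor and PI3K feedback genes rose at 10 and fell at 6 of 18. FOXO3, a transcription factor restrained by AKT, went from 14.7, 15.1 and 14.6 FPKM to 33.3, 34.3 and 32.8 FPKM (1.13), and DDIT4, an inhibitor of mTORC1, rose by 1.11 and PIK3R3 by 0.99. PIK3R1, a PI3K regulatory subunit, went from 37.2, 36.3 and 39.3 FPKM to 15.2, 14.1 and 14.6 FPKM (-1.30), ERBB3 fell by 0.95 and PIK3IP1 by 0.88, the last without a call in the counts (edgeR adjusted p = 0.21). In the BCL2 family, 3 of 14 rose and 7 fell: BOK, BID and BIK fell by 1.58, 1.04 and 0.58, and the pro-apoptotic BMF and BCL2L11 and the anti-apoptotic MCL1 rose by 0.62, 0.51 and 0.40. The BMF rise was not called in the counts (edgeR adjusted p = 0.11).

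Targets of p53 rose at 8 and fell at 6 of 18, with a median of -0.002 that became 0.11 with TMM scaling. TP53I3, TP53INP1 and RRM2B rose by 1.08, 1.05 and 0.71, and GDF15, PHLDA3 and PLK3 fell by 0.94, 0.74 and 0.36. The PLK3 call was lost with TMM scaling and without the filter. In the NF-kB and interferon list 5 genes passed the filter: 2 rose, among them IRF7 by 1.14, and ISG15, IRF9 and NFKBIA fell by 1.34, 0.33 and 0.29. Of the 10 luminal markers 6 fell and 1, FOXA1, rose, with KRT18 falling by 0.73. The BET inhibitor response markers were HEXIM1 and ZCCHC24, which rose (ZCCHC24 by 0.60), and MYC and SERPINI1, which fell.

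SYP, synaptophysin, was the 1 neuroendocrine marker of 5 above the filter. It went from 1.36, 1.42 and 1.20 FPKM to 8.03, 9.25 and 9.11 FPKM (2.07), with a change of 2.09 for JQ-1 alone, while NEUROD1 was at 0 in all 6 libraries. The leukocyte marker CD68 fell by 0.63 and the stromal marker COL1A1 was at -0.0066, not called. No basal marker passed the filter.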
